A study of Mus musculus with 59 samples.

Results

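Livers of mice with an E2F3b knock-in (3bKI, 5 arrays) were compared with livers of wild-type mice (wt, 12 arrays) at 4 weeks of age. The arrays were chosen by their titles and by the shared normalization that the labels name, and these 17 samples are members of a series of 59. Another 10 arrays, from E2f3a knock-out mice (3aKO), were normalized with them and entered the fit. The mice of all 3 groups were on a mixed background of FVB/NT, 129S1/Svlmj and C57BL/6NT, and no group received a treatment. The locus into which E2F3b was placed, the promoter that drives it, the state of the 2 E2f3 alleles and the number of founder lines are not stated in the labels used here. Nor is it stated whether each array stands for an animal of its own, so p-values reflect the spread between samples, which may be technical. Total RNA was hybridized as biotin-labelled cRNA to Affymetrix mouse arrays, and values are log2 signals of probe sets. In bulk liver, fewer cells of a type and less RNA per cell cannot be told apart. Albumin (Alb), the main secreted protein of hepatocytes, had a log2 signal between 14.94 and 15.04 in 3bKI and between 14.91 and 15.04 in wt. The number of arrays limits the precision of each value.

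E2F proteins are transcription factors that bind promoters of genes for S phase and DNA synthesis, mostly as partners of a DP protein. Pocket proteins of the retinoblastoma family bind E2Fs and silence their targets until cyclin-dependent kinases release them. The E2f3 gene makes E2F3a from an upstream promoter and E2F3b from an intronic promoter, so that the proteins share their DNA-binding part and differ at the amino end. In the young liver, hepatocytes leave the cell cycle while they take up adult metabolism, much of which follows PPAR alpha and the circadian clock.

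The upstream 250 bases of the 2 E2f3 start sites in RefSeq (GRCm38.p6, chromosome 13, minus strand) are shown because the isoforms differ in their promoter, and the array does not separate them. Capitals mark the E2F motif TTTNNCGC on either strand. It stood in the first window, 11 bases before the start site, and these letters were not in the other. The motif occurs in 4.28% of 32851 such windows of all genes. The table used here does not say which window serves which isoform.
E2f3, chr13:29986064-29986313: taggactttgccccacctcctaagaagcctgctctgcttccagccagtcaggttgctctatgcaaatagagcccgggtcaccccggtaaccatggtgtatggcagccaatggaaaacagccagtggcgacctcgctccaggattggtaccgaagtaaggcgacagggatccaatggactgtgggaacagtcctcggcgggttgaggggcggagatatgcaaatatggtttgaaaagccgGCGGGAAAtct
E2f3, chr13:29984392-29984641: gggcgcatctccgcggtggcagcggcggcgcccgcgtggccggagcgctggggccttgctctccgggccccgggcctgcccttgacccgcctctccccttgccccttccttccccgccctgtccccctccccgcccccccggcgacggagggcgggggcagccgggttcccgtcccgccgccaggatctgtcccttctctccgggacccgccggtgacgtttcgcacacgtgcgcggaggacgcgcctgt

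The array holds 2 probe sets for E2f3, and they moved in opposite directions. The brighter one read 7.61, 7.63, 7.32, 7.91 and 7.86 in 3bKI replicates 1 to 5 and from 7.63 to 8.18 (median 7.93) in wt. It fell by 0.24 ± 0.09 (log2 change ± SE, limma with Benjamini-Hochberg adjustment, adjusted p = 0.049, n = 5 and 12). Against wt replicates 1 and 2, which read 7.76 and 7.63, the change was -0.03. The dimmer one read 6.12, 5.82, 5.96, 6.35 and 6.12 in 3bKI and from 5.68 to 6.11 in wt, a change of 0.20 ± 0.08 that did not pass (adjusted p = 0.056). Both ranges overlap those of wt. Whether either probe set covers the inserted sequence is not stated in the sources, so E2f3 signal does not check the label. The brighter call ended without any of wt replicates 3 and 6 to 12 or 3bKI replicates 1 to 3, with -0.16 (adjusted p = 0.24) without 3bKI replicate 3.

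The 3bKI arrays stood apart from wt in control signals, those of 2 sets of added RNAs and a 3' to 5' comparison of Gapdh and Actb. Hybridization controls, RNAs added just before hybridization, averaged 11.6 ± 0.29 (SD, n = 5) on the log2 scale in 3bKI and 10.4 ± 0.51 (n = 12) in wt (2-sided exact permutation test, adjusted p = 0.0019 over 3 signals). Wt replicates 1 and 2, at 11.5 and 11.4, had the level of 3bKI, whereas the other 10 wt arrays lay between 9.83 and 10.5. Poly-A controls, RNAs added before labelling, lay between 13.77 and 13.85 in 3bKI and between 8.485 and 9.695 in wt (adjusted p = 4.8e-04, exact permutation test). Signals at the 3' minus those at the 5' end of Gapdh and Actb gave a difference, which grows as RNA breaks down, of 0.275 to 0.36 in 3bKI and 0.475 to 0.65 in wt (adjusted p = 4.8e-04, exact permutation test). For these last 2 signals no wt array, replicates 1 and 2 included, reached the 3bKI arrays, so their part cannot be told apart from that of the genotype. By Xist and Y-linked genes, 3bKI replicates 1 and 3 and wt replicates 3 to 7 were female, and the others, wt replicates 1 and 2 among them, were male.

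**Figure D1:**
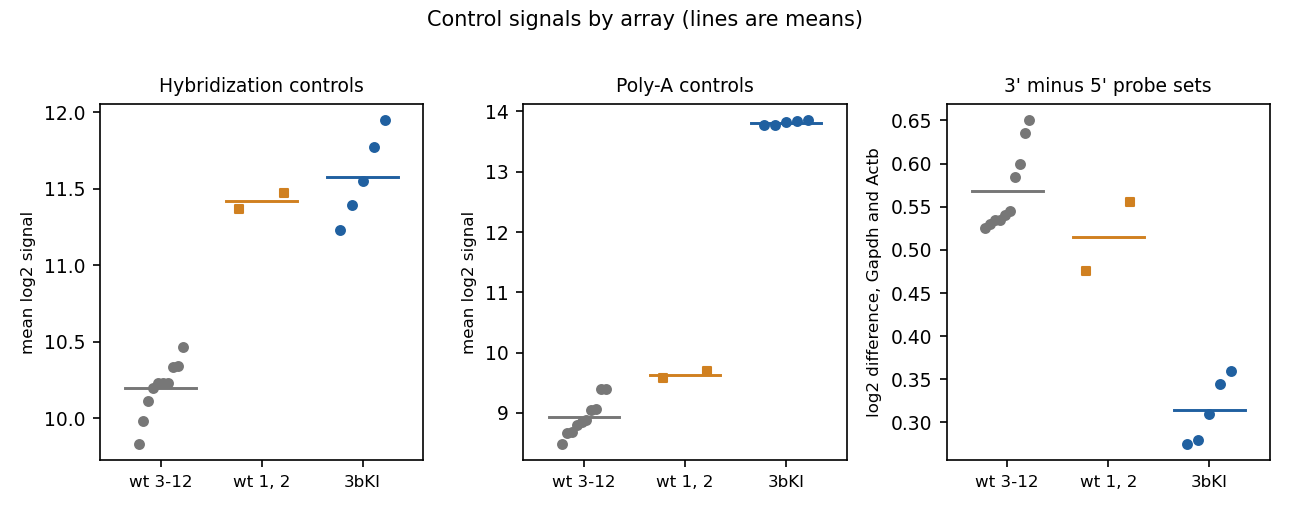
Mean log2 signal of hybridization controls and of poly-A controls, and the log2 difference of the 3' and the 5' probe sets for Gapdh and Actb, for 10 wt arrays (wt 3-12), wt replicates 1 and 2 and 5 3bKI arrays. Points are arrays and lines are means. Wt replicates 1 and 2 lie with 3bKI in the hybridization controls, at 11.4 and 11.5, but not in the other panels.

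Of 18193 genes tested, 5318 (29.2%) passed an adjusted p of 0.05 in 3bKI against all wt arrays. Of these 2433 (13.4% of the genes) rose and 2885 (15.9%) fell, while the median change over all genes was 0.001. With array medians set equal the split was 1742 up and 3693 down. Most changes were small, with a median size of 0.34 on the log2 scale, and 135 genes (60 up, 75 down) moved by more than 2-fold. All 5 3bKI arrays lay above all 12 wt arrays for 492 genes (2.7%) and below them for 814 (4.47%). Levels in the knock-in livers were somewhat less uniform than in wt, with a median SD per gene of 0.168 against 0.143.

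The call list was much shorter where wt replicates 1 and 2 were the reference, but 2 arrays also give less precision. The part of that loss was not tested. With these 2 arrays left out 5485 genes passed. A blocked fit, with the hybridization control level of the arrays as its block, sets 3bKI against wt replicates 1 and 2. In it 1583 genes (8.7%) passed, 602 up (3.31%) and 981 down (5.39%), of which 1430 were also called against all wt arrays. With wt replicates 1 and 2 as the sole wt arrays and their own spread, 133 genes (0.731%) passed, 127 of them called before. Of the 5318 called genes, 5213 had the same direction against wt replicates 1 and 2, and for 2675 (50.3%) all 5 3bKI arrays lay beyond both of these. The median size of their changes was 0.28 there, and 3883 changes were smaller than against all wt arrays. With the 3' minus 5' difference as a covariate 605 genes passed, and 19 of the 44 gene lists held no called member in that limma fit, against 5 in the comparison with all wt arrays. The 3' minus 5' difference did not overlap between 3bKI and wt, so this fit cannot tell its part from that of the genotype.

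**Figure D2:**
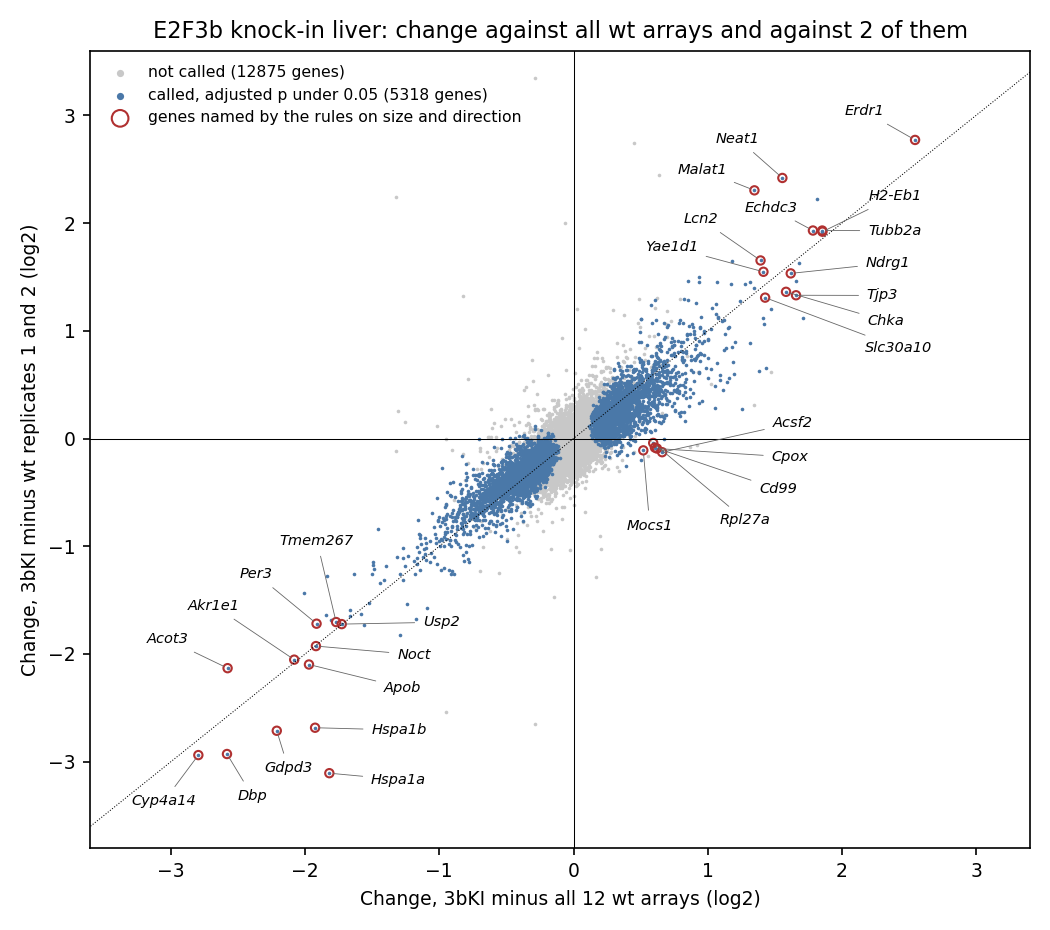
Log2 change of each of 18193 genes in 3bKI against the mean of all 12 wt arrays (x axis) and against the mean of wt replicates 1 and 2 (y axis), with called genes in blue and genes named by size and direction circled. The dotted line marks equal changes. Erdr1, at 2.55 and 2.77, and Cyp4a14, at -2.80 and -2.94, keep their size, while Acsf2 and Cpox lie at 0.66 and 0.62 on the x axis and at -0.13 and -0.09 on the y axis.

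Some calls changed direction with the wt arrays used. Against wt replicates 1 and 2, 80 of the upward calls became negative and 24 of the downward calls positive. Acsf2, an acyl-CoA synthetase family gene, read 9.00, 9.33, 8.96, 9.43 and 9.42 in 3bKI. Its wt arrays ran from 8.02 to 9.42 with a median of 8.44, and replicates 1 and 2, at 9.42 and 9.29, were high among them. The rise of 0.66 ± 0.15 (limma adjusted p = 0.0012) was -0.13 against these 2. Cpox, an enzyme of haem synthesis, changed by 0.62 and -0.09, Cd99 by 0.61 and -0.08, the ribosomal protein gene Rpl27a by 0.59 and -0.04, and Mocs1, of molybdenum cofactor synthesis, by 0.52 and -0.11. In each of these 5 genes, which were chosen because their direction turned, replicate 1 or 2 was the highest wt array. The Rpl27a call ended in 10 of 17 fits that left out 1 array, with changes down to 0.48.

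The circadian clock held the lowest median of the 44 gene lists. Clock factors of the PAR bZIP family (Dbp, Tef, Hlf) and the Period genes oscillate in liver under Clock and Arntl, which act through E-boxes, and the PAR factors act in turn through D-boxes. Of 15 clock output genes 10 fell and 2 rose (80% called, against 29.2% of all genes). Their median change was -1.16 (-0.94 against wt replicates 1 and 2). Of 14 core clock genes 5 fell and 3 rose (57.1% called), with a median of -0.33. In the blocked fit 7 output and 3 core genes fell, and 1 output gene rose. Over all genes 5.39% fell and 3.31% rose in that fit.

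Dbp read 6.97, 11.68, 6.56, 11.49 and 9.73 in 3bKI replicates 1 to 5, against 10.44 to 12.35 (median 12.21) in wt. Replicates 1 and 3 were far below every wt array, replicate 5 was below them by less, and replicates 2 and 4 lay among them. On average Dbp fell by 2.58 ± 0.54 on the log2 scale (limma adjusted p = 4.6e-04), or 5.99-fold, and both Dbp probe sets were called lower. Replicates 1 and 3 were also the lowest, followed by replicate 5, in Per3, a repressor of the clock, which read 6.03, 8.59, 6.06, 8.91 and 7.49 against 8.97 to 9.75 in wt, with no overlap. Tef read 9.64, 11.15, 8.94, 11.08 and 10.36 against 11.30 to 11.74, and Nr1d2, the REV-ERB beta repressor, 9.86, 10.92, 8.50, 11.07 and 10.68 against 11.05 to 11.68. In each of these 4 genes replicates 2 and 4 were nearest to wt. Another probe set of Tef changed by -0.44 and another of Nr1d2 by -0.53, and neither passed (limma adjusted p = 0.11 for each). Noct, a deadenylase-related clock output gene, read 7.05, 10.59, 8.05, 9.73 and 6.37 against 9.18 to 11.05, and here replicate 5 was the lowest.

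Genes of the opposite phase were higher in the same arrays. Arntl (Bmal1), the partner of Clock, read 7.58, 7.01, 7.27, 6.70 and 6.97 in 3bKI and 6.43 to 6.98 in wt, and rose by 0.40 ± 0.10 (limma adjusted p = 0.0023). Npas2, a paralogue of Clock, read 5.64, 4.79, 5.58, 4.77 and 5.00 against 4.56 to 5.02, with a rise of 0.37 ± 0.12. Nfil3, a repressor at D-boxes, read 9.32, 7.01, 8.96, 8.07 and 8.55 against 6.88 to 8.63. For all 3 genes replicates 1 and 3 were the highest of 3bKI. Without either of these the Npas2 and Nfil3 calls ended, with changes down to 0.25 and 0.43, as did that of Nfil3 without 3bKI replicate 5 or wt replicate 7. Clock itself rose by 0.43 ± 0.10. Cry1 and Nr1d1 (REV-ERB alpha) had changes of -0.67 and 0.86 that did not pass (adjusted p = 0.072 and 0.077).

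Other clock and clock output genes fell as well. In Wee1 replicates 1 and 3 were again the lowest, with replicate 5 close to replicate 3. Wee1, a kinase that holds back mitosis and a clock target, read 7.15, 8.48, 7.86, 8.89 and 7.87 against 9.43 to 10.01, with no overlap. It fell by 1.67 ± 0.17 (limma adjusted p = 2.7e-08). Per2 fell by 1.50 ± 0.21 without overlap, though its other 2 probe sets changed by -0.36 and -0.26 and did not pass. Usp2, a deubiquitinase, fell by 1.73 ± 0.24, the uridine phosphorylase gene Upp2 by 1.27 ± 0.18, and Nampt, the NAD salvage enzyme, by 1.16 ± 0.19. Alas1, which starts haem synthesis, fell by 1.30 ± 0.31. Nr1d2 fell by 1.27, and the change was -0.84 without 3bKI replicate 3 and -0.585 without 3bKI replicates 1 and 3. Without replicates 1 and 3 the change was -1.306 for Wee1, -1.292 for Usp2, -1.199 for Per2 and -0.962 for Upp2. Insig2, a brake on cholesterol synthesis, rose by 1.08 ± 0.16 in 5 of 5 arrays above all wt arrays.

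3bKI replicates 1 and 3, lowest for Dbp and Per3, were also the female arrays, had the highest hybridization controls and had the lowest 3' minus 5' difference of the 5. The part of these in the split was not tested. In wt, Dbp lay between 10.69 and 12.31 in 5 female and between 10.44 and 12.35 in 7 male arrays. With the sex index as a covariate the Dbp change was -2.54 (limma adjusted p = 2.7e-04). Without replicates 1 and 3, an alternative chosen after seeing the data, 9 output genes fell and 2 rose, with a median of -0.9. The core clock median was -0.05 there, with 4 genes called lower and 2 higher. In the same fit Per3 changed by -1.0 (limma adjusted p = 3.4e-04), and Dbp by -0.90 and no longer passed (adjusted p = 0.068). With the 3' minus 5' difference as a covariate 2 output genes and 0 core genes were called lower in limma. At an unadjusted p under 0.05, 8 output and 3 core genes were lower there, and 2 output genes and 1 core gene were higher. The list medians in that fit were -0.98 (output) and -0.29 (core).

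**Figure D3:**
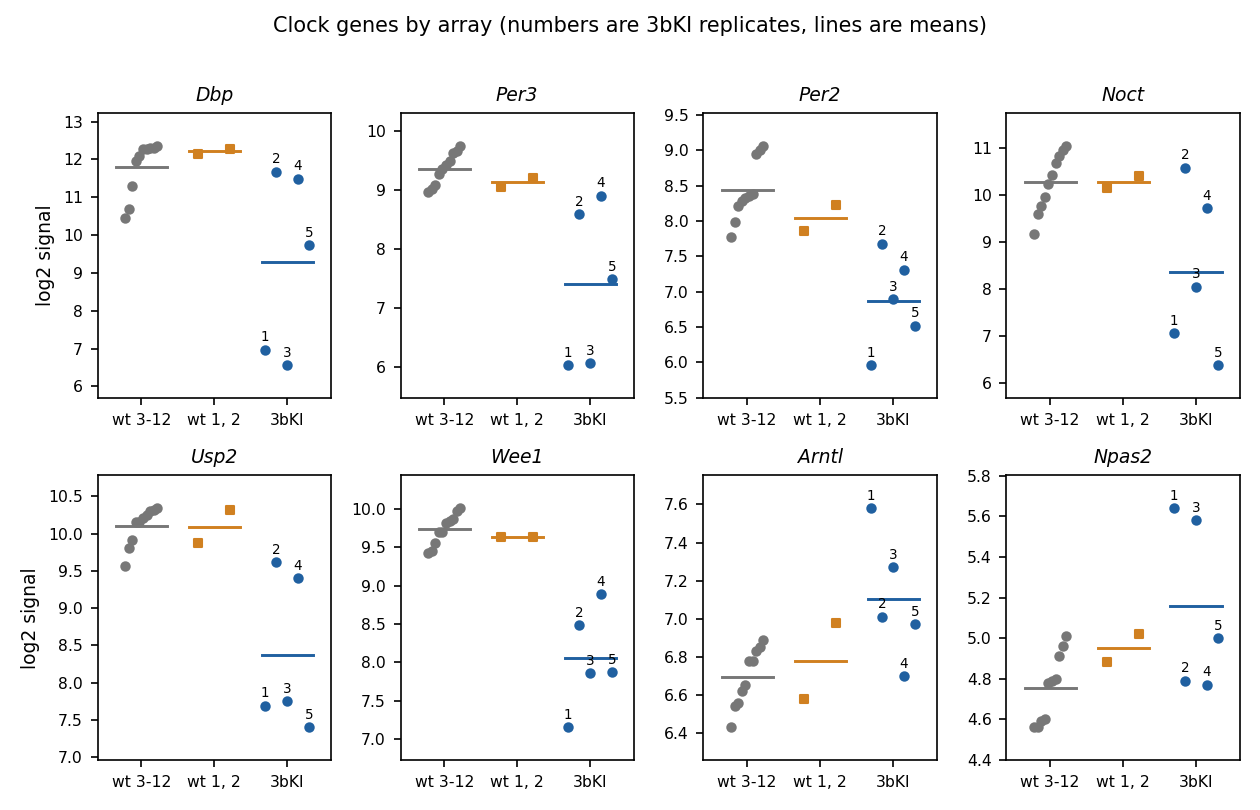
Log2 signal of 8 clock genes in 10 wt arrays, in wt replicates 1 and 2 and in 5 3bKI arrays, numbered by replicate. Lines are means. Replicates 1 and 3 are the lowest for Dbp (6.97 and 6.56) and Per3 (6.03 and 6.06) and the highest for Arntl (7.58 and 7.27) and Npas2 (5.64 and 5.58).

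Promoters of Per3 and Tef are shown because these genes fell together with Dbp and carry the letters of a clock element. Capitals mark the D-box TTANGTAA in Per3 and the E-box CACGTG in Tef, searched on both strands. Per3 holds 2 D-boxes, 205 and 158 bases before its start site. The Tef window shown holds an E-box at 127 bases, and that of another Tef start site, not shown, an E-box at 138 bases. D-boxes occur in 2.06% and E-boxes in 6.02% of the windows of all genes. Of 12 core clock genes with a window, 4 held an E-box (Bhlhe41, Ciart, Cry1, Per1) and 1 a D-box. Of 13 output genes with a window, 1 held an E-box and 0 a D-box. Counted by window, E-boxes were in 4 of 16 core and 2 of 20 output windows. D-boxes were in 1 of 16 and 0 of 20.
Per3, chr4:151044666-151044915, minus strand: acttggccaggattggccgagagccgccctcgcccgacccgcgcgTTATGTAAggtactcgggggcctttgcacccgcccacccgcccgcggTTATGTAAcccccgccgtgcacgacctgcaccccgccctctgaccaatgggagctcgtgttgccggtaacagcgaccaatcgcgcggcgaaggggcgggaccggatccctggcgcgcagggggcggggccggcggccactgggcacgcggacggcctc
Tef, chr15:81802423-81802672, plus strand: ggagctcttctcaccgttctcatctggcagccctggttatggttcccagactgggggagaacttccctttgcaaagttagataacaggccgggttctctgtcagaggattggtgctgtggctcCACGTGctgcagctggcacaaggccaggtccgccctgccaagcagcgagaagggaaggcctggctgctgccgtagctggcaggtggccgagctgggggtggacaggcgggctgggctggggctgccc

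Genes that PPAR alpha drives in liver were lower. PPAR alpha is the fatty acid sensor of hepatocytes and switches on peroxisomal and mitochondrial fat breakdown in fasting. Of 27 targets 17 fell and 1 rose (66.7% called, against 29.2% of all genes). Their median was -0.33 (-0.30 against wt replicates 1 and 2), and 6 fell in the blocked fit, where 5.39% of all genes fell. Cyp4a14, a fatty acid omega-hydroxylase, read 8.77, 7.20, 8.96, 10.42 and 7.58 in 3bKI and 9.88 to 12.36 in wt. Replicates 2 and 5 were the lowest and replicate 4 alone reached the wt range, a different order from that of the clock genes. Cyp4a14 fell by 2.80 ± 0.51 (limma adjusted p = 8.8e-05), or 6.94-fold. Acot3, a peroxisomal acyl-CoA thioesterase, read 8.48, 7.29, 8.96, 6.98 and 6.48 against 9.55 to 11.00, with no overlap. Vnn1, a pantetheinase, read 7.61, 7.36, 8.44, 8.06 and 7.04 against 8.64 to 10.10, again with no overlap.

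Other targets fell by less, among them Acot1 (-1.18), Acot4 (-0.87), Angptl4 (-0.77), the peroxisomal thiolase gene Acaa1b (-0.56) and Ehhadh (-0.43). The exception was Pdk4, which blocks glucose oxidation and is also a glucocorticoid target. It rose by 1.12 ± 0.29 (limma adjusted p = 0.0034), although 3bKI replicate 2, at 5.23, lay among the wt arrays (5.16 to 6.51). The Angptl4 call ended without 3bKI replicate 3 (-0.34) or 5. Plin2 and Fgf21 had changes of 0.16 and -0.07 that did not pass. Without 3bKI replicates 1 and 3 together 11 targets fell and 0 rose, and with the 3' minus 5' difference as a covariate 5 fell, Cyp4a14 and Acot3 among them.

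Of 19 genes of fatty acid oxidation and ketogenesis 11 fell and 1 rose (63.2% called), with a median of -0.23. The called falls ran from -0.19 (Hadhb) to -0.58 (Eci2), and 7 genes fell in the blocked fit, where 5.39% of all genes fell. Eci2, a peroxisomal enoyl-CoA isomerase, read 11.35, 11.45, 10.90, 11.43 and 11.08 against 11.56 to 11.99. Cpt1a, which admits fatty acids to mitochondria, fell by 0.46 ± 0.08, Decr1 by 0.45 ± 0.07 and Hadh by 0.43 ± 0.06. Acads, the short-chain acyl-CoA dehydrogenase, rose by 0.26 ± 0.07. Of 38 oxidative phosphorylation subunits 10 fell and 3 rose (34.2% called, against 29.2% of all genes), with a median of -0.05. This split followed the scaling, with 2 down and 6 up after further quantile normalization and 16 down and 0 up with equal array medians. In limma 0 of the 38 passed with the 3' minus 5' difference as a covariate (2 at an unadjusted p under 0.05). The Hadhb call ended without 3bKI replicate 3 or 5, and its dimmer probe sets were called lower (-0.90) and higher (0.47).

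**Figure D4:**
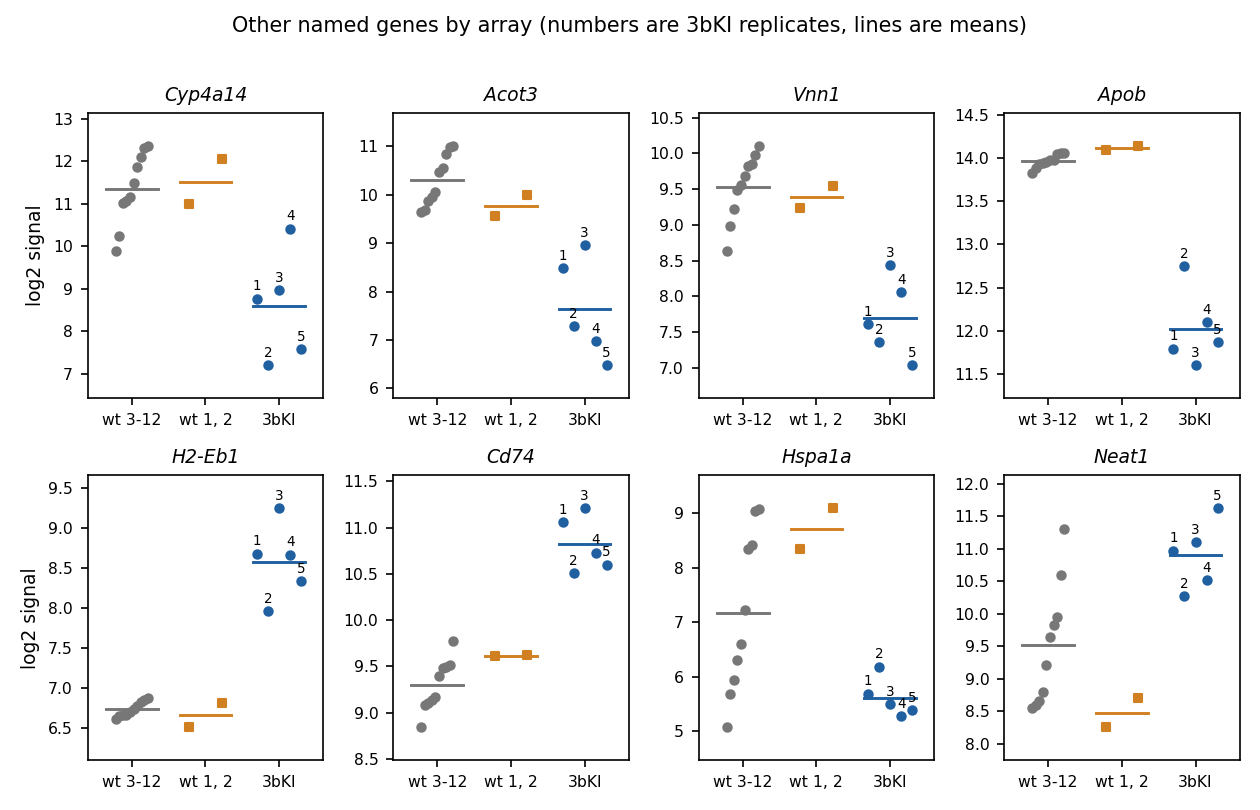
Log2 signal of 8 named genes outside the clock in 10 wt arrays, in wt replicates 1 and 2 and in 5 3bKI arrays, numbered by replicate. Lines are means. Acot3, Vnn1, Apob, H2-Eb1 and Cd74 do not overlap between 3bKI and wt, whereas the wt arrays of Hspa1a and Neat1 spread over more than the 3bKI arrays.

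Apob, the protein backbone of very low density lipoprotein, read 11.79, 12.75, 11.60, 12.10 and 11.87 in 3bKI and 13.83 to 14.14 in wt. It fell by 1.97 ± 0.11 (limma adjusted p = 2.4e-13), or 3.92-fold, and the change against wt replicates 1 and 2 was -2.10. A dimmer Apob probe set changed by -0.48 and did not pass (adjusted p = 0.055). In 3aKO against wt, a comparison that shares the wt arrays, the Apob change was -0.88, and in 3bKI against 3aKO it was -1.09. Among 19 lipoprotein genes 4 fell and 4 rose (42.1% called, against 29.2% of all genes), with a median of 0.07. The others that fell were Angptl4, Apoa5 (-0.28) and Mttp (-0.20, a call that ended without 3bKI replicate 1 or 3), which loads lipid onto Apob. Pltp (0.83), the HDL receptor gene Scarb1 (0.56), Apoc2 (0.37) and Lcat (0.28) rose, though the other 2 probe sets of Scarb1 were called lower (-0.22 and -0.33). After further quantile normalization the list split was 3 down and 6 up.

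Fatty acid synthesis genes were lower in part, 8 of 22 down and 1 up (40.9% called, against 29.2% of all genes). Their median was -0.22. With the 3' minus 5' difference as a covariate 0 were called lower and 1 higher in limma (2 lower at an unadjusted p under 0.05), with a median of -0.06. Thrsp, a lipogenic thyroid hormone target, read 12.05, 13.75, 13.02, 13.04 and 13.25 against 13.86 to 14.38. The desaturase gene Fads2 fell by 0.72 ± 0.12 and Elovl6 by 0.78 ± 0.21. Mlxipl, which encodes the sugar-sensing factor ChREBP, moved the other way. It read 11.74, 12.15, 11.55, 11.56 and 11.87 against 10.27 to 11.65 and rose by 1.03 ± 0.15 (limma adjusted p = 4e-06). Of 19 sugar handling genes 7 fell and 5 rose (63.2% called). Gys2, the liver glycogen synthase, fell by 1.10 ± 0.17 and transketolase (Tkt) by 0.68 ± 0.07. The Tkt value comes from a probe set of the _x_at kind, and another bright one changed by 0.10 and did not pass (limma adjusted p = 0.4).

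Gluconeogenic and fasting genes were split, 7 down and 4 up of 20 (55% called, against 29.2% of all genes). In the blocked fit 5 fell and 3 rose. Foxo1, a transcription factor held in check by insulin, fell by 0.64 ± 0.11 and was below every wt array, while its dimmest probe set was called higher (0.21, limma adjusted p = 0.0068). Pck1 fell by 0.45 ± 0.09 and pyruvate carboxylase (Pcx) by 0.33 ± 0.08. The coactivator gene Ppargc1a read 8.37, 8.09, 7.06, 7.98 and 7.96 against 6.65 to 7.97, with replicates 1 and 2 of wt at the bottom of that range (6.65 each). It rose by 0.58 against all wt arrays and by 1.24 against these 2, while 2 dimmer probe sets were called lower against all wt arrays (-0.45 and -0.72). Got1 (0.82 and 1.30) and the urea cycle gene Ass1 (1.07 and 1.45) also had larger changes against wt replicates 1 and 2. The Ppargc1a call ended in 7 of 17 fits that left out 1 array (lowest 0.46).

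Of 17 phosphatidylcholine genes 3 rose and 5 fell (47.1% called, against 29.2% of all genes). Both choline kinases rose, Chka by 1.58 ± 0.21 (limma adjusted p = 1.8e-06) and Chkb by 0.83 ± 0.09. Pcyt2, of the ethanolamine branch, rose by 0.46 ± 0.07. Pcyt1a, the rate-limiting enzyme of the choline branch, fell by 0.62 ± 0.07, as did Chdh, which oxidizes choline (-0.51). These 5 genes also passed in the blocked fit. Gdpd3, a lysophospholipase D, had the widest wt range of the named genes, 5.18 to 10.96 (median 10.73), and read 10.38, 7.76, 9.37, 7.98 and 4.82 in 3bKI. It fell by 2.21 ± 0.69, but the change was -1.40 without 3bKI replicate 5 and did not pass (adjusted p = 0.11).

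Bile acid genes were mixed, 7 down and 4 up of 26 (42.3% called, against 29.2% of all genes), with a median of -0.05. Cyp7a1, the rate-limiting enzyme, read 9.05, 11.46, 10.85, 10.18 and 9.24 against 11.09 to 12.99. It fell by 2.01 ± 0.33. The change was -1.43 against wt replicates 1 and 2 and did not pass in the blocked fit (adjusted p = 0.076). Other enzymes rose, Hsd3b7 by 0.74 ± 0.10 above every wt array, Cyp27a1 by 0.41 ± 0.06 and Cyp8b1, needed for cholic acid, by 0.75 ± 0.25 (0.59 and not passing without 3bKI replicate 5). The uptake carriers Slco1a1 and Slco1a4 fell by 0.46 and 0.81. Of 25 cholesterol genes 2 rose and 2 fell (16% called). Abca1, the cholesterol exporter, fell by 0.48 ± 0.05.

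Heat shock chaperones were lower, 10 of 23 down and 1 up (47.8% called, against 29.2% of all genes). Their median was -0.21, but the wt arrays spread widely. None of these calls held with the 3' minus 5' difference as a covariate, where 0 of the 23 passed in limma (2 at an unadjusted p under 0.05). The list median in that fit was -0.16. Hspa1a, an inducible HSP70 gene, read 5.69, 6.18, 5.50, 5.28 and 5.39 in 3bKI and 5.07 to 9.09 (median 7.78) in wt. The wt arrays reached both lower and much higher than 3bKI, from 5.07 to 7.22 in 5 female and from 6.6 to 9.09 in 7 male arrays. Replicates 1 and 2 of wt, both male, were high (9.09 and 8.34). Hspa1a fell by 1.82 ± 0.66 (limma adjusted p = 0.037), and the change against these 2 was -3.11. It no longer passed without any of wt replicates 1, 2, 8, 9, 10 and 12 or 3bKI replicates 1, 3, 4 and 5, with changes from -1.67 to -1.84. With the sex index as a covariate Hspa1a changed by -1.72 (limma adjusted p = 0.0042). Its near-identical copy Hspa1b fell by 1.93 ± 0.53, and signal of the pair cannot be told apart with certainty by these probes. In the blocked fit, Hspa1b alone of the 23 genes of the list was called lower, against 5.39% of all genes.

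Dnajb1 fell by 0.76 ± 0.23, Hsph1 by 0.60 ± 0.22 and Hsp90aa1 by 0.46 ± 0.14, whereas the small heat shock gene Hspb1 rose by 0.43 ± 0.13. The Dnajb1 call ended without 3bKI replicate 5 (-0.63), that of Hspb1 without replicate 4 (0.28) and that of Hsph1 in 8 of 17 fits that left out 1 array (down to -0.43). Of 22 genes of the unfolded protein response 5 rose and 2 fell (31.8% called, against 29.2% of all genes). Hyou1 rose by 0.75 ± 0.14 and Herpud1 fell by 0.64 ± 0.14. The Hspa1a promoter is shown because heat shock factor acts through a repeated GAA unit in it. Capitals mark GAANNTTC, 104 bases before the start, which occurs in 7 of 20 heat shock genes. Counted by window it was in 7 of 25, against 6.69% of all windows.
Hspa1a, chr17:34972157-34972406, minus strand: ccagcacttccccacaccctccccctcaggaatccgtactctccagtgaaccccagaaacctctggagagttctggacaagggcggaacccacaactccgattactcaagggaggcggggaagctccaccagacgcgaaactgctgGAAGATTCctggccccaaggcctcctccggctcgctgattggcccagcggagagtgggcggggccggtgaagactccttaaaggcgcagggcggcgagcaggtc

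MHC class II genes, which present antigen on dendritic cells, macrophages and B cells, were higher. Of 10 tested 5 rose and 0 fell (50% called, against 29.2% of all genes). Their median was 0.40 (0.45 against wt replicates 1 and 2). H2-Eb1, a beta chain, read 8.68, 7.96, 9.25, 8.67 and 8.34 in 3bKI and 6.51 to 6.88 in wt. The groups did not overlap, and the rise was 1.85 ± 0.12 (limma adjusted p = 1.8e-11), 3.62-fold. Cd74, the invariant chain, read 11.06, 10.51, 11.21, 10.73 and 10.60 against 8.84 to 9.77, and H2-Ab1 10.47, 9.74, 10.59, 9.82 and 9.93 against 8.66 to 9.41. Neither overlapped. H2-Aa rose by 0.65 ± 0.25 and H2-DMa by 0.61 ± 0.20, while Ciita, the class II master regulator, had a change of 0.04. The H2-Aa call ended in 15 of 17 fits that left out 1 array, and that of H2-DMa without 3bKI replicate 1 (0.38). In the blocked fit, where 3.31% of all genes rose, H2-Eb1 and Cd74 still passed. These 2 were also called without 3bKI replicates 1 and 3. With the 3' minus 5' difference as a covariate H2-Eb1 (1.49, limma adjusted p = 8.7e-04) alone of the list passed, and Cd74 had a change of 0.94 (adjusted p = 0.24).

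Upstream windows of H2-Eb1 and H2-Aa are shown because class II promoters share a CCAAT element next to the X box. Capitals mark CCAAT on either strand, 59 and 35 bases before the start of H2-Eb1 and 48 bases before that of H2-Aa. It occurs in all 6 class II genes with a window. Counted by window it was in 6 of 7, against 33.8% of the windows of all genes.
H2-Eb1, chr17:34305617-34305866, plus strand: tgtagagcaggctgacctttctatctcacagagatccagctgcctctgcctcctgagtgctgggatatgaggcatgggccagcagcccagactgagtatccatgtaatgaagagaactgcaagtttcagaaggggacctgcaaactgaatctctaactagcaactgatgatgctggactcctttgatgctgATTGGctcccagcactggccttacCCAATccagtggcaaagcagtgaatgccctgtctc
H2-Aa, chr17:34287824-34288073, minus strand: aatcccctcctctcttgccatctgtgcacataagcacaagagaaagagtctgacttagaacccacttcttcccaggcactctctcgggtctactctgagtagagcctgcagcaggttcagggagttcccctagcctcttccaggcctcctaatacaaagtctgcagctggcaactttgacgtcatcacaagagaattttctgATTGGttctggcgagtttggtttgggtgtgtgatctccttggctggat

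Of the cells that carry class II, the dendritic and monocyte marker list had 0 of 10 genes called in limma, also at an unadjusted p under 0.05, with 9 of the 10 below the median signal of all genes and a mean log2 level of 5.70 to 5.98 in 3bKI and 5.74 to 5.98 in wt. Lymphocyte markers had 3 of 17 called higher (17.6% called, against 29.2% of all genes). These were Ltb, Cd79b and Cd79a, by 0.31, 0.27 and 0.23. The list had a mean level of 5.85 to 6.19 in 3bKI and 5.79 to 5.99 in wt, with 15 of 17 below the median signal. Of 17 Kupffer cell and macrophage markers 2 rose (Cd5l by 0.54, C1qc by 0.52) and 2 fell (Cd163 by 1.06, Slc40a1 by 0.40). Their called share was 23.5%. Clec4f, which defines Kupffer cells, had a change of 0.24 that did not pass (limma adjusted p = 0.12). The calls of Cd79a, Cd79b, Ltb and C1qc each ended without at least 1 of the 3bKI arrays. The part of these cells in the class II result was not tested.

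Interferon-stimulated genes were higher in part, 8 of 36 up and 0 down with a median of 0.18. The share called was 22.2%, against 29.2% of all genes (13.4% higher and 15.9% lower). Stat2, which carries the type I interferon signal, read 8.62, 8.33, 8.58, 8.49 and 8.62 against 7.16 to 7.86, rose by 1.00 ± 0.09 (limma adjusted p = 4.6e-09) and was called at both probe sets. Lgals3bp rose by 0.94 ± 0.09 and Irf7 by 0.63 ± 0.15. Without 3bKI replicates 1 and 3, 6 rose and 2 fell, with a median of -0.06. In class I antigen processing 3 of 13 rose (23.1% called), Tap1 by 0.97 ± 0.18, Psmb9 by 0.59 and Tapbp by 0.28. 3bKI replicate 1 was the highest array for Tap1 (9.90) and Psmb9 (10.76), and without it the calls of Psmb9 (0.33) and Tapbp ended.

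Few genes of the cell cycle passed. Of 33 genes of the G1/S step and DNA replication 3 fell and 0 rose, Pola1 by 0.76 ± 0.13, Gmnn by 0.53 ± 0.15 and Tk1 by 0.45 ± 0.13. The calls of Gmnn (-0.38) and Tk1 (-0.29) ended without 3bKI replicate 2. The list median was -0.30, but 0.04 against wt replicates 1 and 2, and 0 genes passed in the blocked limma fit (2 at an unadjusted p under 0.05). Cdc6 and Mcm6, loading factors of replication, had changes of -0.61 ± 0.44 and -0.82 ± 0.48 that did not pass, with wt reaching 6.36 and 10.18. Of 29 genes of G2/M and mitosis 0 passed in limma (3 at an unadjusted p under 0.05, all higher), with a median of 0.04. Without 3bKI replicates 1 and 3 the G2/M median was -0.36 and 4 genes were called lower, and with the 3' minus 5' difference as a covariate it was -0.52 with 0 called, also at an unadjusted p under 0.05. Mki67, the proliferation marker, read 7.36, 6.27, 8.66, 6.01 and 5.59 against 5.82 to 8.30, a wider range than in wt. The E2F motif occurred in the windows of 8 of 27 G1/S genes and 2 of 23 G2/M genes. Counted by window it was in 9 of 32 and 2 of 24, against 4.28% of the windows of all genes.

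Among the E2F and DP factors 3 fell and 2 rose of 10 (50% called). In the blocked limma fit 0 passed (2 at an unadjusted p under 0.05). E2f8, a repressor of the family, fell by 0.84 ± 0.21 and the DP gene Tfdp2 by 0.40 ± 0.08, below every wt array. The other E2f8 probe set changed by 0.01 (limma adjusted p = 0.97), and the dimmest of Tfdp2 was called higher (0.28). E2f4, the main pocket-protein partner in resting cells, rose by 0.34 ± 0.06. E2f2 rose by 0.29 ± 0.11, a call that ended in 10 of 17 fits that left out 1 array, with 0.15 (adjusted p = 0.29) without 3bKI replicate 3. E2f1 had a change of -0.14. Of 18 pocket proteins, cyclins, kinases and inhibitors 2 rose and 2 fell (22.2% called, against 29.2% of all genes). Ccne2 fell by 1.00 ± 0.24 at a low signal (3.98 to 4.82 in 3bKI), and Rb1 by 0.37 ± 0.13, which was 0.02 against wt replicates 1 and 2 and did not pass without wt replicate 11 or any of 3bKI replicates 1 to 3. Cdkn1b (p27) rose by 0.79 ± 0.15. Cdkn1a (p21), the p53-responsive cell cycle inhibitor, read 9.39, 7.54, 9.80, 8.01 and 8.51 against 7.18 to 8.27. Its rise of 1.06 ± 0.24 was 0.43 without 3bKI replicates 1 and 3 and did not pass (adjusted p = 0.14). Of 18 p53 targets 2 rose, the other being Bbc3 (0.87), and 3 fell (27.8% called).

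Several of the strongest changes lay outside these pathways. Erdr1 read 12.20, 12.73, 11.83, 12.91 and 12.09 in 3bKI and 9.09 to 10.53 in wt, a rise of 2.55 ± 0.22, 5.84-fold, at a probe set of the _x_at kind that can bind related sequences. Its other probe set changed by 0.08. Echdc3, an enoyl-CoA hydratase-like gene, read 10.43, 10.88, 9.79, 11.08 and 11.00 against 8.50 to 9.65. Ndrg1, a stress and hypoxia-responsive gene, rose by 1.62 ± 0.20 and was called higher at all 5 of its probe sets (1.20 to 1.87). The manganese exporter gene Slc30a10 rose by 1.43 ± 0.16 and the tight junction gene Tjp3 by 1.66 ± 0.21, both above every wt array. Tubb2a, a tubulin, read 11.77, 9.65, 11.97, 10.92 and 11.62 against 8.12 to 10.04, with replicate 2 alone in the wt range. Lcn2, an acute phase protein, rose by 1.39 ± 0.41, a call that ended without 3bKI replicate 1 (1.10, adjusted p = 0.054).

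Akr1e1, an aldo-keto reductase, read 9.78, 7.45, 7.57, 7.97 and 5.44 against a narrow 9.63 to 9.84 in wt. Replicate 1 was at the wt level and replicate 5 far below the rest. Tmem267 read 8.33, 4.42, 8.28, 6.90 and 7.90 against 8.41 to 9.33, with replicate 2 the lowest. It fell by 1.77, and the change was -1.08 without that array. Hao2, a hydroxyacid oxidase with sex-biased expression in liver, read 11.61, 7.96, 12.57, 7.34 and 9.05 against 10.78 to 12.37. The female replicates 1 and 3 were high, and wt lay between 11.79 and 12.37 in female and between 10.78 and 11.65 in male arrays. It fell by 1.84 ± 0.52, a call that ended without 3bKI replicate 4 (-1.25, adjusted p = 0.061). Retreg3, an endoplasmic reticulum turnover receptor chosen after its values were seen, read 7.67, 7.82, 7.43, 7.73 and 7.93 against 9.18 to 9.52 and fell by 1.66 ± 0.06 (limma adjusted p = 3.3e-17). Its changes against wt replicates 1 and 2 (-1.64) and against all wt arrays were nearly equal.

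Probe sets of a gene did not always move together, as Scarb1, Foxo1 and Tfdp2 show. Of 3211 called genes with several probe sets, 1569 (48.9%) had another one called in the same direction and 483 (15%) another called in the opposite direction. Yae1d1, an assembly factor, rose by 1.42 at its brighter probe set and fell by 0.84 at another, and Hsd17b13, a lipid droplet enzyme, fell by 1.06 (-0.29 and not passing without 3bKI replicate 3) and rose by 1.19. The nuclear noncoding RNAs Neat1, the scaffold of paraspeckles, and Malat1, of nuclear speckles, both rose, by 1.56 ± 0.34 and 1.35 ± 0.23. Neat1 read 10.97, 10.27, 11.10, 10.51 and 11.62 against 8.25 to 11.30, with wt replicates 1 and 2 near the bottom (8.70 and 8.25), and its change against these was 2.42. Another Neat1 probe set changed by 0.13. Calls of Ghr, Pck1, Tfr2, Slc40a1, Abca1, Dnajb1 and Eng were likewise made at their brightest probe set alone, and the next changed by 0.03, -0.01, -0.04, -0.16, -0.16, -0.14 and 0.06. Malat1 was called higher at 5 of 7 probe sets, while 2 changed by -0.30 and -0.37 and did not pass.

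Lists of stress and mineral metabolism divided. Metallothioneins, zinc-binding proteins that rise with glucocorticoids, fell by 1.49 ± 0.51 (Mt1) and 1.64 ± 0.55 (Mt2). Mt1 read 11.79, 12.46, 10.63, 10.65 and 8.20 against 11.47 to 13.02, with replicate 5 the lowest. The Mt1 change was -0.85 without replicate 5, and the calls of both genes ended without replicate 3 or 5, that of Mt1 also without replicate 4. Tsc22d3, a glucocorticoid target, fell by 0.98 ± 0.16, and of that list of 20 genes 8 fell and 4 rose (60% called). Il6ra, the interleukin 6 receptor, fell by 1.52 ± 0.20 below every wt array, and Saa1 rose by 1.19 ± 0.33, a call that ended without 3bKI replicate 4 (0.72, adjusted p = 0.061). Acute phase genes were 6 down and 5 up of 31 (35.5% called, against 29.2% of all genes). Their split was 3 down and 7 up after further quantile normalization. With the 3' minus 5' difference as a covariate it was 1 down and 0 up. Of 18 iron genes 6 fell and 4 rose (55.6% called, and 6 and 6 after further quantile normalization). Among them the iron exporter gene Slc40a1 (-0.40) and Tfr2 (-0.43) were on the lower side. Of 19 hypoxia-responsive genes 6 fell, Bnip3 by 0.88 ± 0.09, and Ndrg1 alone rose (36.8% called, against 29.2% of all genes). Immediate early genes had 4 of 23 higher (17.4% called, against 29.2% of all genes). Among them Junb changed by 1.05 ± 0.24 against all wt arrays and by 0.29 against wt replicates 1 and 2. Egr1 reached 12.04 in 3bKI replicate 1 and did not pass.

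Drug metabolism genes were called at shares (28.1% of cytochrome P450 and 28.6% of conjugation genes) near the 29.2% of all genes. Of 32 cytochrome P450 genes 8 fell and 1 rose (Cyp3a13, by 0.89 ± 0.22), and 0 passed in the blocked limma fit (5 at an unadjusted p under 0.05). Conjugation genes were 4 up and 4 down of 28 (4 and 8 with equal array medians), with the sulfotransferase gene Sult5a1 up by 0.97 ± 0.20. The growth hormone receptor gene Ghr fell by 0.49 ± 0.06, while Igfals and Stat5b of the same axis rose by 0.45 and 0.44 (Stat5b by 0.28 without 3bKI replicate 1). Afp, the fetal albumin, had a change of 0.08 that did not pass.

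Markers of liver cell types changed in different directions. Of 15 hepatocyte markers 2 fell and 1 rose (20% called), or 1 and 2 after further quantile normalization and 7 and 1 with equal array medians. The hepatocyte list had a median of -0.07 and a mean level of 13.6 to 13.7 in both groups. Sinusoidal endothelial markers had 6 of 18 higher and 0 lower (33.3% called, against 29.2% of all genes), with a median of 0.21. Their mean level was 8.54 to 8.84 in 3bKI and 8.31 to 8.73 in wt. Dnase1l3, a nuclease of these cells, rose by 0.82 ± 0.13 and endoglin (Eng) by 0.56 ± 0.08, whereas Stab2 and Lyve1, which define them, had changes of 0.09 and -0.26 that did not pass. With the 3' minus 5' difference as a covariate 0 of the 18 passed in limma (3 at an unadjusted p under 0.05). Stellate and fibroblast markers had 6 of 16 lower and 1 higher (43.8% called). Col3a1 fell by 0.50 ± 0.17 (a call that ended without any of 3bKI replicates 1, 2, 4 and 5) and Reln by 0.42 ± 0.08. Neutrophil markers (2 of 11 at an unadjusted p under 0.05) and those of pancreas, muscle and fat (0 of 12) had 0 called in limma. Cholangiocyte markers had 2 of 9 called (22.2%, against 29.2% of all genes). Of zonation markers 5 rose and 3 fell of 18 (44.4% called), but 4 rose and 5 fell with equal array medians.

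**Figure D5:**
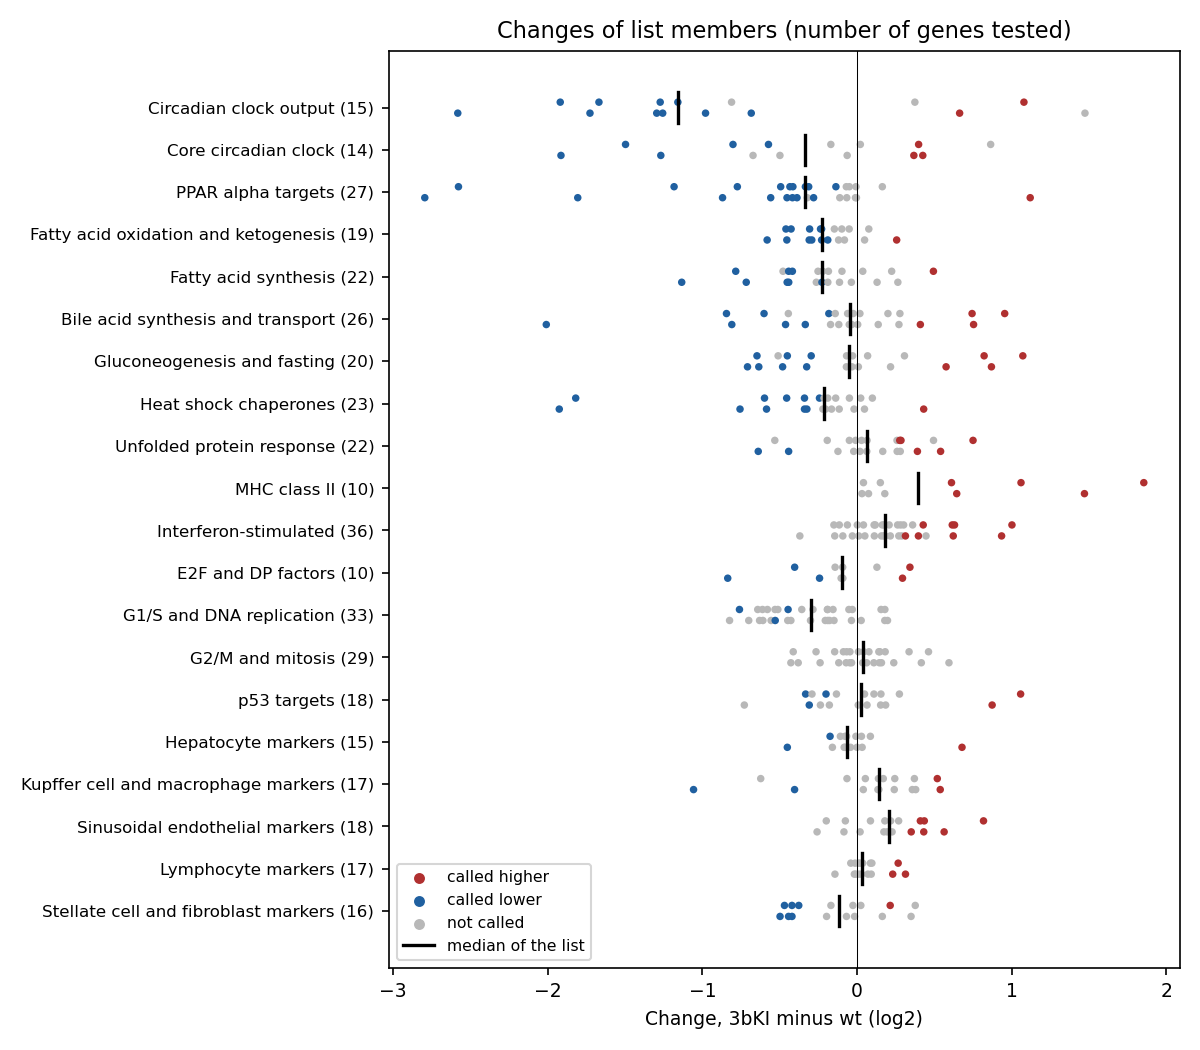
Log2 change in 3bKI against wt of every tested member of 20 gene lists, with the number tested in parentheses and a bar at the list median. Red points were called higher, blue lower and grey did not pass. Clock output (median -1.16), PPAR alpha targets (-0.33) and fatty acid oxidation (-0.23) lie to the left, MHC class II (0.40) to the right.

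The 3aKO arrays, of the same normalization, gave another reference for the 24 genes named for size. Against 3aKO 6218 of 18193 genes (34.2%) were called in 3bKI, and 22 of the 24 were among them. The exceptions were Malat1 (0.43, adjusted p = 0.17) and Hspa1a (-1.25, adjusted p = 0.16). Both comparisons share the 3bKI arrays, and these genes were chosen for their change in them, so the count is a description.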

How the data were processed

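Values were the log2 probe set signals deposited by the authors for 27 arrays (12 wt, 10 3aKO, 5 3bKI), normalized together by the authors; the sources used here do not name the method. The log base was read from the range (2.13 to 15.06), and the values were neither ratios nor centred by gene. Array medians lay between 5.83 and 5.96. Per the labels, RNA was extracted with Trizol and 5 µg was labelled. The array has 45101 probe sets, of which 34945 name 1 gene and were used, 932 name several, 9160 name none and 64 are controls. Symbols came from the platform annotation, and 34754 matched RefSeq by Entrez ID. Each of 18193 genes was represented by its brightest probe set, with 9010 genes having more than 1, and dim genes were kept.

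The model was lmFit and eBayes of limma 3.58.1 (R 4.3.3) over the 27 arrays, with Benjamini-Hochberg adjustment over all genes at 0.05, and was tested on simulated data. Errors of changes are moderated standard errors. Control signals were compared by 2-sided exact permutation tests. The 44 gene lists held 931 members, 836 of them tested. Called genes above the median signal (6.87) were named by the smaller of their changes against all wt arrays and against wt replicates 1 and 2 (12 up, 12 down), with the 5 largest that turned sign, the 5 with the largest SD, E2f3, and up to 4 called members of each list with the smallest p. Other list members were named for their role. The comparison, lists and rules were chosen with earlier results of these data known. Promoter sequences are RefSeq windows of GRCm38.p6. Alternatives changed 1 choice at a time, except for the block together with the sex index, among them the arrays in the fit, the probe set, the normalization, array weights, sex, RNA integrity and the wt arrays used.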

Additional observations from a re-analysis of the deposited data

Results flagged for a closer look

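In 7 of 160 named or listed genes, 1 of the 5 3bKI arrays stood far from the other 4 by Dixon's test (critical ratio 0.71), where chance gives about 1 group in 20. 3bKI replicate 1 was high for Mocs1 (8.42) and Sult1d1 (11.41). Replicate 2 was low for Gmnn (7.24), Srebf2 (9.13) and Igfbp4 (14.06). Replicate 3 was low for Hsd17b13 (5.82), where the others lay between 8.94 and 10.09, and high for Hspe1 (12.39). The poly-A controls, which are not liver genes, were 4.77 higher on the log2 scale in 3bKI than in wt, and replicates 1 and 2 of wt shared the wt level.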

How the results depend on the processing

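Against 5318 genes called with all arrays, between 4856 and 5379 were called when each of the 17 arrays was left out in turn. The count was 1583 in the blocked fit (the hybridization control level), 1482 with the sex index added to it, 133 with wt replicates 1 and 2 as the sole wt arrays, 605 with RNA integrity (the 3' minus 5' difference) as a covariate, and 10546 of 34945 when every probe set was tested on its own. It lay between 4269 and 5591 under the other alternatives, with the lowest value for 3bKI replicates 1 and 3 both left out. Equal array medians gave 5435 calls and moved the split from 2433 up and 2885 down to 1742 up and 3693 down, with an all-gene median of -0.048. Same-numbered wt and 3bKI arrays did not deviate together (correlations from -0.251 to 0.321), and with the replicate number as a block 4282 genes passed. Of 160 named or listed genes, 82 lost their call in the blocked fit and 6 turned sign there, 141 and 6 with wt replicates 1 and 2 alone, and 120 and 3 with RNA integrity. Values that turned sign were, in the blocked fit and with wt replicates 1 and 2 alone, Acsf2 -0.13, Cpox -0.09, Cd99 -0.08, Rpl27a -0.04, Mocs1 -0.11 and Rb1 0.02. With the block and the sex index they were Acsf2 -0.07, Cpox -0.10, Cd99 -0.01, Mocs1 -0.12 and Ltb -0.01. With RNA integrity they were Flt4 -0.0026, Gpr182 -0.05 and Cldn7 -0.16, with the mean of the probe sets Hsd17b13 0.06, Slc38a2 0.08, Atp5c1 0.07 and Igfbp4 0.04, and without _x_at probe sets Tkt 0.10. The cause was not tested, except that the probe set alternatives use other probes. Signal over background is not in the values used, so limits of dim probe sets are unknown.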
